A study of Mus musculus with 5 samples.

Results

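Liver mesenchymal cells with a history of Col1a1 promoter activity were divided by their stored vitamin A (VitA), and the RNA of the VitA- gate was compared with that of the VitA+ gate in liver from mice given diethylnitrosamine (DEN) and a Western alcohol diet (WAD). A cell entered the comparison when it held at least 2000 unique molecular identifiers (UMIs, 1 per captured RNA molecule), at least 20 UMIs per 10000 from Dcn, Col3a1 and Colec11 together, and 0 UMIs of Pecam1, Ptprc and Epcam. This rule kept 12059 of the 13210 barcodes in this pair of libraries, out of 24007 barcodes in the whole series. The VitA+ library gave 9997 of 10481 barcodes (95.4%), and the VitA- library gave 2062 of 2729 (75.6%). In the VitA+ library 172 barcodes fell to the UMI minimum, 201 to the summed mesenchymal genes and 111 to the endothelial, leukocyte and epithelial genes. The matching numbers in the VitA- library were 106, 465 and 96. Few cells lay near the threshold of 20: 1 and 0 kept cells had a sum between 20 and 25, and 1 cell of each library was removed with a sum between 15 and 20. The 6 genes of the rule are not results here.

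All mice were males on a C57BL/6J background that carried the Rosa26mTmG reporter and Col1a1-Cre, so that a cell turned green after any past activity of the collagen promoter. The DEN + WAD mice received 10 mg/kg DEN at 2 weeks of age, and from 6 weeks of age they took a Western diet with 3.5% ethanol by volume for 5 months. The chow mice received saline and ordinary food over the same time. GFP and the autofluorescence of VitA set the gates, so both gates hold only cells with the reporter switched on, and quiescent stellate cells that never used this promoter are outside both. Each gate of each treatment was 1 library, how many animals it pooled was not given in the sources used here, and no gene could be tested against the spread between animals. Levels are UMIs per 1000000 summed over the kept cells (CPM), their intervals are exact 95% Poisson intervals, and the intervals of ratios are exact and binomial. All of them cover counting error only.

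Hepatic stellate cells (HSC) are the pericytes of the liver sinusoid. They take up retinol, esterify it through lecithin-retinol acyltransferase (Lrat) and store the esters in lipid droplets, whose fluorescence is the basis of this gate. Upon chronic injury HSC lose droplets and lay down collagen as activated HSC (aHSC), while portal fibroblasts (PF) of the tract around the portal vein hold no VitA store and can also make collagen. A VitA-Col1a1+ gate can thus hold aHSC that have lost their store as well as PF and smooth muscle cells.

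The gene behind the gate went the way of the label. Lrat (chr3:82892579-82903973, minus strand, GRCm38) stood at 1521 CPM in the VitA+ library (1515 to 1528) and at 718 CPM in the VitA- library (709 to 726), which is 2.12-fold lower (log2 ratio -1.08, -1.10 to -1.07). Sfrp1 (chr8:23411502-23449632), a secreted antagonist of Wnt ligands, went the other way with 1.93 CPM (1.71 to 2.17) against 279 CPM (274 to 284), a 145-fold higher level in VitA- cells (log2 ratio 7.18, 7.01 to 7.35). Epor (chr9:21958897-21963506), the erythropoietin receptor, stood at 76.3 CPM (74.9 to 77.7) in VitA+ cells and 12.4 CPM (11.3 to 13.6) in VitA- cells, which is 6.13-fold lower. Among genes with 50 CPM or more in the higher library, Epor had the lowest ratio of all and Sfrp1 the fifth highest.

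The sequences just before the start of 2 of these genes and of Igfbp5, the gene with the second highest ratio, are shown because their RNAs lay on opposite sides of the comparison. Each is the 250 bases upstream of the RefSeq start on GRCm38.p6, read 5′ to 3′ on the strand of the gene (minus for all 3), at chr3:82903975-82904224 for Lrat, chr9:21963577-21963826 for Epor and chr1:72874866-72875115 for Igfbp5. Capitals mark matches on either strand to 5 motifs, which were the core bound by TEAD factors, GGAATG, the letters bound by factors of the GATA family, AGATAA, the half-site of nuclear receptors, AGGTCA, the site of AP-1, TGACTCA, and the box bound by the general transcription machinery, TATAAA.
Lrat: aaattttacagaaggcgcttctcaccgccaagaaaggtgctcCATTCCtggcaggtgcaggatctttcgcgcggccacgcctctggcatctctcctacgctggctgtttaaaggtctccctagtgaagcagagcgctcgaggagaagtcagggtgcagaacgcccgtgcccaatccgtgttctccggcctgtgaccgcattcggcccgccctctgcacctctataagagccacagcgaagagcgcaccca
Epor: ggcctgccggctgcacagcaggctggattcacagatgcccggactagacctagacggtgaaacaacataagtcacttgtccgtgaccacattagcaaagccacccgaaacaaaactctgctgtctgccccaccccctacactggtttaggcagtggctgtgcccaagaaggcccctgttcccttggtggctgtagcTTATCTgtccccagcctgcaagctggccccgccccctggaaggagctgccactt
Igfbp5: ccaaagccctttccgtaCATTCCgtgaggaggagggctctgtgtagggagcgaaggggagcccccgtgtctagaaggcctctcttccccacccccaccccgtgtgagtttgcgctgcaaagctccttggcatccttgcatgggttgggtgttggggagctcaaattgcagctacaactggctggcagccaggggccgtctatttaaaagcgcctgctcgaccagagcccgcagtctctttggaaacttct
Lrat and Igfbp5 each held 1 match to the TEAD core, 208 and 233 bases before the start, and Epor held 1 match to the GATA motif, 54 bases before the start. Of 27025 promoter windows of this length, 12.6% held the TEAD core, 10.3% the GATA motif, 13.8% the nuclear receptor half-site, 4.43% the AP-1 motif and 12.97% the TATA box. Of the tested genes 78.7% had a window, and over these 6327 windows the shares were 10.2%, 5.29%, 9.70%, 2.92% and 6.04%. A match gives letters and no binding. A comparison of motif shares between genes that were higher and lower was void, since 71.2% and 72.2% of them had a window in this table. Sfrp1 and Lamc3 are named only.

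Across the transcriptome, 8043 genes reached a mean of 10 CPM over both libraries. Of these, 416 (5.17%) were 2-fold or more higher in VitA- cells, and 126 (1.57%) were 2-fold or more lower. The median log2 ratio of all tested genes was 0.02. The higher side reached much further: 196 genes were 4-fold or more higher against 7 lower, and 84 against 0 at 16-fold. The genes that were higher made up 6.11% of the UMIs of VitA- cells and 1.64% of those of VitA+ cells, and the genes that were lower made up 2.39% and 5.73%.

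**Figure D1:**
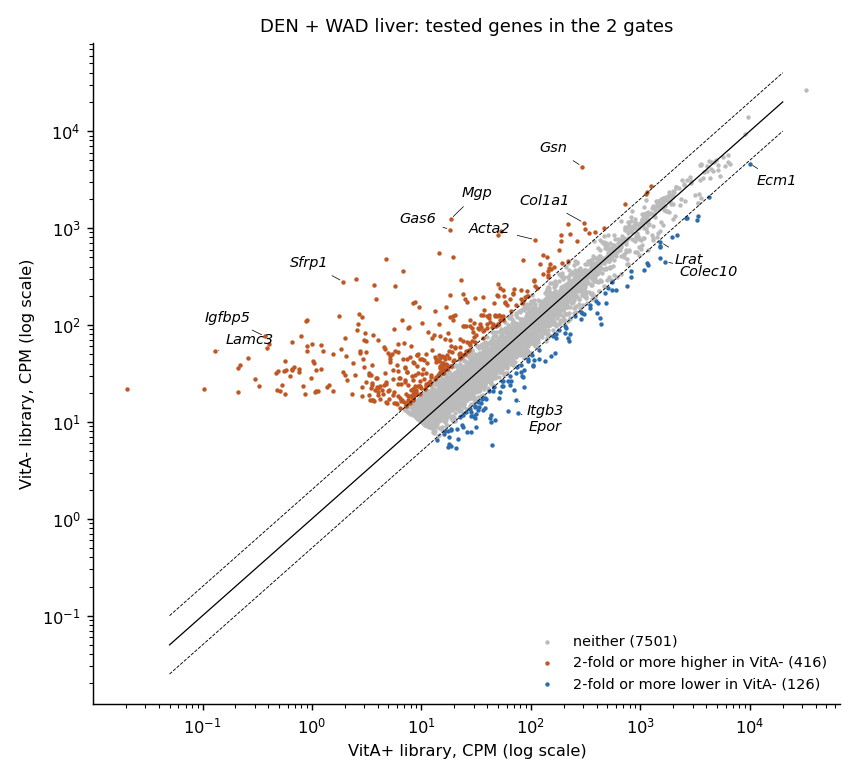
Level of each of 8043 tested genes in the VitA+ library (x axis) and the VitA- library (y axis) of DEN + WAD liver, in CPM on log axes; each point is a gene, the solid line marks equal levels and the dashed lines a 2-fold difference. Genes higher in VitA- cells (416, orange) spread far from the diagonal, as Lamc3 does at 0.130 and 53.2 CPM, while of the genes lower in VitA- cells (126, blue) 7 are 4-fold or more away from it.

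The 12 highest ratios among genes with 50 CPM or more, Sfrp1 included, belonged to secreted, matrix-bound and metabolic gene products that VitA+ cells barely expressed. Lamc3, a laminin chain, had 19 UMIs in the whole VitA+ library (0.130 CPM, 0.0785 to 0.204) and 53.2 CPM in the VitA- library (50.9 to 55.6), a 408-fold difference. Igfbp5, a binding protein of insulin-like growth factors, stood at 0.371 and 76.4 CPM (206-fold). The matrix proteins and proteases Cilp, Cpxm2 and Fbln1 were 155-, 150- and 70.6-fold higher, and the dipeptidase Dpep1 was 120-fold higher (2.51 and 299 CPM). Tnnt2, a troponin first known from cardiac muscle, rose from 0.899 to 112 CPM between the gates. Fgl2 (0.885 and 110 CPM), the flavin monooxygenase Fmo2 (4.73 and 476 CPM) and the lipopolysaccharide binding protein Lbp (0.796 and 77.5 CPM) also belonged to it. Few cells carried these RNAs: 50% of the UMIs of Igfbp5 lay in 45 of the 2062 VitA- cells, those of Cilp in 44 and those of Fmo2 in 168.

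The 12 lowest ratios, from the same level upwards, were of another kind. Here VitA- cells held a moderate level and not a trace. After Epor came the elastase Cela1 (62.1 and 12.9 CPM), the integrin Itgb3 (73.1 and 16.8 CPM) and the neural adhesion molecule Ntm (438 and 103 CPM). The collectin Colec10, abundant in HSC, stood at 1693 CPM (1687 to 1700) in VitA+ cells and 451 CPM (444 to 457) in VitA- cells, 3.76-fold lower. Lama1, a laminin chain of basement membranes, was 3.72-fold lower (85.7 and 23.0 CPM), which set it against Lamc3 of the same protein family. The G protein regulator Rgs4 (427 and 118 CPM), Cyfip2, the microtubule protein Mapt, the complement component C6 (165 and 50.9 CPM), Fam84a and Tnfaip8 were between 3.16- and 3.63-fold lower. For Colec10, 50% of the UMIs lay in 3046 of the 9997 VitA+ cells and in 276 of the 2062 VitA- cells.

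**Figure D2:**
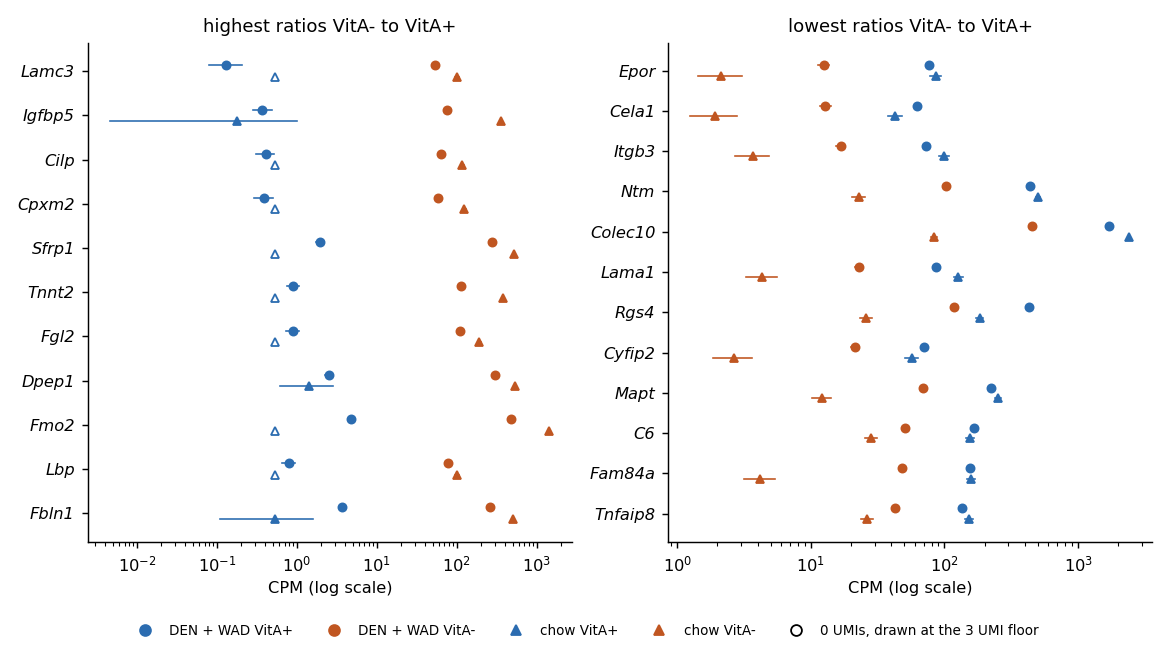
Levels in CPM (log axis) of 11 of the genes with the highest (left) and the 12 with the lowest (right) ratio of VitA- to VitA+ in DEN + WAD, with circles for DEN + WAD, triangles for chow and bars for exact Poisson 95% intervals; open symbols are libraries with 0 UMIs, drawn at 3 UMIs. On the left the VitA+ symbols sit at or below 4.73 CPM in all 11 genes, and on the right the chow VitA- triangles lie to the left of the DEN + WAD VitA- circles, as for Epor at 2.13 and 12.4 CPM.

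HSC identity genes were lower in VitA- cells as a group without vanishing. Of 27 such genes, all tested, 13 were 2-fold or more lower, 0 were higher, and the median log2 ratio was -0.999. Ecm1, a secreted matrix protein that restrains latent TGF-beta, stood at 9989 and 4631 CPM, the G protein regulator Rgs5 at 3334 and 1335 CPM, and Hgf, the hepatocyte growth factor, at 826 and 363 CPM. Reln, a secreted glycoprotein used to mark HSC, lay at 1183 and 592 CPM with a log2 ratio of -0.999 just inside the 2-fold limit. The other members did not reach 2-fold. The chemokine Cxcl12 was level at 4080 and 4326 CPM, the intermediate filament Des stood at 323 and 345 CPM, the receptor Pdgfrb at 245 and 263 CPM and the globin Cygb at 1063 and 1155 CPM. Pericyte genes shared by mesenchymal cells were thus among the members near a ratio of 1.

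Retinoid genes differed less between the gates than HSC identity genes did by their median. Of 31 members 17 were tested, 2 were lower, 0 were higher, and the median log2 ratio was -0.53. Over every barcode, cells of other types included, 2 of 20 tested members were higher and 2 lower, with a median of 0.11. Among kept cells the 2 lower members were Lrat and Plin2, the coat protein of lipid droplets, at 306 and 128 CPM (2.39-fold lower). The carotenoid oxygenase Bco1 stood at 190 and 111 CPM, and the retinoic acid receptor Rarb at 47.1 and 31.3 CPM. On the other side of 1 were lipoprotein lipase Lpl (379 and 739 CPM, log2 ratio 0.96) and the retinaldehyde reductase Dhrs3 (95.7 and 146 CPM). The ester store itself was not measured.

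Receptors for hormones and vasoactive peptides fell within the lower side. Of 19 tested members 8 were lower, 1 was higher, and the median log2 ratio was -0.57. The glucagon receptor Gcgr stood at 43.4 and 11.7 CPM (3.71-fold lower). Calcrl and Ramp1, which together form the receptor for calcitonin gene-related peptide, were 3.01- and 2.93-fold lower, the latter at 1072 and 365 CPM. The parathyroid hormone receptor Pth1r (1148 and 435 CPM) and the receptor Vipr1 for vasoactive intestinal peptide (820 and 313 CPM) were 2.64- and 2.62-fold lower. Both endothelin receptors stayed inside 2-fold, with Ednrb at 554 and 586 CPM and Ednra at 276 and 185 CPM. The 1 member that was higher was Lpar1, a lysophosphatidic acid receptor, at 44.3 and 96.0 CPM.

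Genes that mark HSC by their position in the lobule were also examined. Of 5 genes of HSC near the portal vein 3 were lower, namely Itgb3, the neurotrophin receptor Ngfr (207 and 82.2 CPM) and the cytokine Il34 (159 and 76.1 CPM), and Tagln was higher. Of 5 genes of HSC near the central vein 2 were higher, namely Adamtsl2 (120 and 430 CPM) and Loxl1 (56.2 and 231 CPM), and 0 were lower. Rspo3 (964 and 529 CPM), Sox4 (101 and 91.6 CPM) and Spon2 (97.6 and 164 CPM) stayed inside 2-fold. In chow 2 of these 5 central genes were higher and 3 lower, with a median log2 ratio of -1.01 beside 0.75 in DEN + WAD. The portal genes had 1 higher and 3 lower in chow too. Loxl1 and Tagln are also on the collagen and contractile lists, so neither marks position alone.

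Among cytokine receptors and their JAK-STAT partners, Epor was 1 of 2 lower members. Of 17 tested members 2 were lower and 2 were higher, beside 1.57% and 5.17% of all tested genes. The median log2 ratio of 0.12 turned to -0.04 under TMM factors. The receptor Lifr for leukaemia inhibitory factor was the other lower member at 344 and 149 CPM (2.30-fold), and its partner Il6st stood at 462 and 252 CPM (log2 ratio -0.87). The higher members were Il11ra1 (193 and 438 CPM) and Il6ra (3.51 and 17.0 CPM). Jak2, the kinase of the erythropoietin receptor, stood at 46.2 and 33.7 CPM, and the transcription factor Stat5b at 13.5 and 16.7 CPM, both inside 2-fold.

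**Figure D3:**
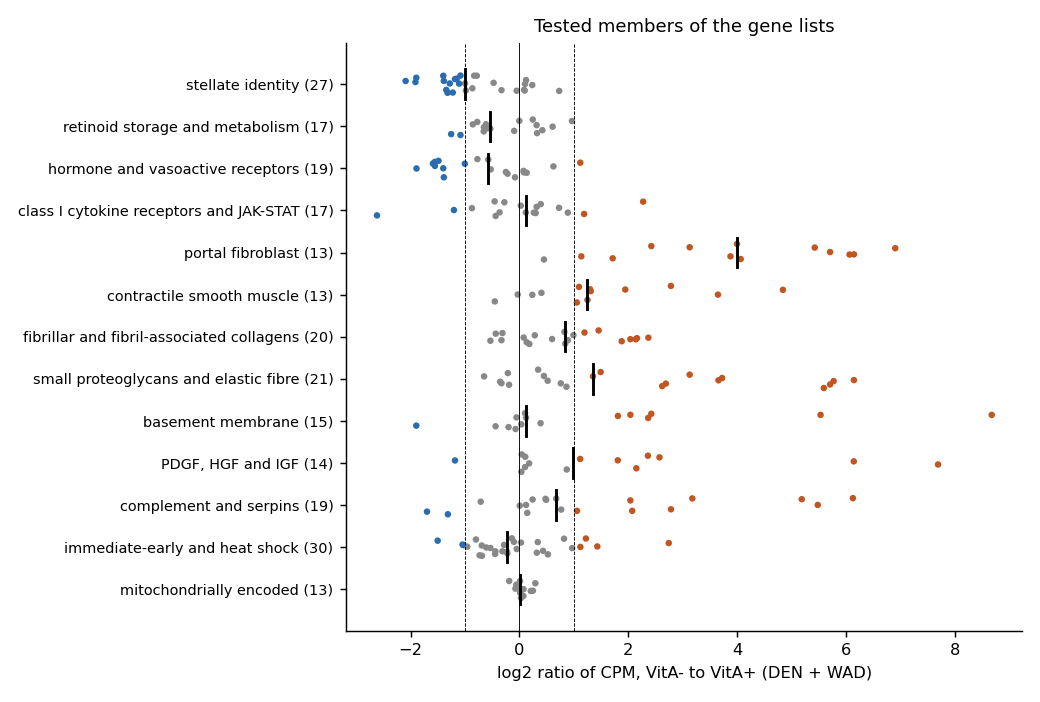
The log2 ratio of CPM, VitA- to VitA+ in DEN + WAD liver, of tested members of 13 gene lists; each point is a gene, orange points are 2-fold or more higher, blue points 2-fold or more lower, black bars are medians and the number of tested members stands in brackets. HSC identity genes reach down to -2.09 with a median of -0.999, PF genes have a median of 3.995, and the 13 mitochondrially encoded genes lie between -0.19 and 0.29.

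Most tested PF genes were higher in VitA- cells. Of 20 members 13 were tested and 12 of them were higher, with a median log2 ratio of 3.995. Matrix Gla protein (Mgp), an inhibitor of calcification, stood at 18.5 and 1235 CPM (66.8-fold). The actin-severing protein Gsn stood at 294 and 4312 CPM (14.7-fold), and the collagen-associated proteins Dpt and Mfap4 at 50.2 and 838 CPM and at 6.83 and 356 CPM. Fbn1, the main microfibril protein, was the tested member inside 2-fold (102 and 139 CPM). The remaining 7 members did not reach a mean of 10 CPM. The study used Thy1 and Fbln2 as PF markers, and both were scarce: Thy1 had 0.316 CPM (0.231 to 0.421) and 17.5 CPM (16.2 to 18.8), Fbln2 had 1.43 and 10.2 CPM.

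Contractile genes rose in part. Of 13 tested members 9 were higher and 0 were lower, with a median log2 ratio of 1.25. Smooth muscle actin Acta2, the usual mark of aHSC as well as of vascular smooth muscle, stood at 110 and 756 CPM (6.87-fold). The visceral actin Actg2 (0.824 and 23.6 CPM) and the leiomodin Lmod1 (7.64 and 95.6 CPM) had the largest ratios among tested members, 28.6- and 12.5-fold, and 50% of the Actg2 UMIs of the VitA- library lay in 12 cells. Under the filter, calponin Cnn1 stood at 0.158 and 9.14 CPM. Tagln, an actin-binding protein, stood at 719 and 1767 CPM, and smooth muscle myosin Myh11 at 25.5 and 98.0 CPM. Mylk, the kinase that sets smooth muscle tone, stayed inside 2-fold at 429 and 505 CPM.

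Matrix genes differed by class. Of 20 tested fibrillar and associated collagen genes, lysyl oxidases included, 7 were higher and 0 were lower, with a median log2 ratio of 0.83. Col1a1, the gene of the reporter's promoter, stood at 307 CPM (304 to 310) and 1128 CPM (1118 to 1139), 3.67-fold higher in VitA- cells. Its partner chain Col1a2 stayed inside 2-fold (663 and 1174 CPM), as did Col14a1 (2311 and 1708 CPM). The crosslinking enzymes Lox and Loxl1 were 5.16- and 4.10-fold higher. Of 21 tested small proteoglycans and elastic fibre genes 11 were higher and 0 lower, among them elastin Eln (24.0 and 210 CPM) and fibromodulin Fmod (3.82 and 184 CPM), while biglycan Bgn was level at 5119 and 4484 CPM. Basement membrane genes were divided: Col4a1 and Col4a2, the chains of the common type IV collagen, stood within 2-fold (652 and 709 CPM, and 271 and 291 CPM), Col4a4 was 46.2-fold higher (0.769 and 35.5 CPM), and 6 of 15 tested members were higher against 1 lower. Metalloproteinases and their inhibitors had 5 of 14 tested members higher and 0 lower, with Mmp3 at 5.12 and 44.4 CPM and Timp1 at 79.9 and 68.3 CPM. A few cells carried the Mmp3 level, since 50% of its UMIs lay in 2 VitA+ cells and in 8 VitA- cells.

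Signalling genes on the higher side included ligands and binding proteins. Besides Sfrp1, the secreted Wnt genes held Wnt5a (6.21 and 28.5 CPM) and Dkk3 (29.5 and 84.2 CPM) among 3 higher of 6 tested members, while Rspo3, which strengthens Wnt signals, stood at 964 and 529 CPM (log2 ratio -0.87). Of 11 tested Wnt receptors and targets 2 were higher and 0 lower, the receptors Fzd2 (1.13 and 21.0 CPM) and Fzd4 (20.0 and 43.9 CPM). In the PDGF, HGF and IGF group 7 of 14 tested members were higher and 1 was lower. Igfbp6 stood at 0.329 and 23.2 CPM, Igfbp4 at 217 and 1113 CPM and the growth factor Igf1 at 13.1 and 77.9 CPM, against the level Igfbp7 (9053 and 9273 CPM) and the lower Hgf. The TGF-beta and BMP group had 6 of 25 tested members higher and 1 lower: Tgfb3 stood at 9.03 and 49.3 CPM, the BMP ligand Gdf10 at 52.4 and 239 CPM, Tgfb1 at 117 and 88.8 CPM, and the ligand Bmp10 was the lower member at 118 and 44.1 CPM. Of 20 tested YAP and TEAD target genes 5 were higher and 0 lower, with a median log2 ratio of 0.02 that turned to -0.08 under TMM factors. They were F3, the initiator of clotting (2.88 and 121 CPM), Ctgf (309 and 977 CPM), Ankrd1, Myof and Tgfb2, whereas Cyr61 stood at 1583 and 1893 CPM and Yap1 itself at 59.6 and 56.9 CPM.

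The study followed a stearoyl-CoA desaturase and a P450 enzyme that makes oxylipins in aHSC. Scd2, the desaturase, stood at 62.1 CPM (60.8 to 63.4) in VitA+ cells and 47.1 CPM (44.9 to 49.3) in VitA- cells, a log2 ratio of -0.40 that stays inside 2-fold. Cyp1b1 was 9.11-fold higher in VitA- cells (5.20 CPM, 4.84 to 5.59, and 47.4 CPM, 45.2 to 49.6). In the cells that the rule removed for a low mesenchymal sum Cyp1b1 also differed, with 8.01 and 24.7 CPM. Ptgs2, the cyclooxygenase whose products feed such enzymes, was 9.28-fold higher (5.39 and 50.1 CPM), as were Hpgd and Ptgis at 9.32- and 3.07-fold. Of 18 tested genes of this group 4 were higher and 0 lower, with a median log2 ratio of 0.17. Gas6, the ligand of the receptor tyrosine kinase Axl and a candidate tumour promoter of the study, stood at 18.3 and 960 CPM (52.3-fold). Of 6 tumour promoter genes, some of them (Ereg, Vegfa, Gas6 and Mmp2) named by the study from its own samples, 4 were higher, which is not independent evidence of direction. Besides Gas6 they were Mmp2 (64.1 and 187 CPM), Mmp23 (45.6 and 170 CPM) and Vegfa (22.4 and 58.9 CPM).

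Complement and serpin genes had members at both ends. Of 19 tested, 8 were higher and 2 lower: the central complement protein C3 stood at 5.72 and 255 CPM, Serpinf1 at 1.76 and 122 CPM, and the inhibitor Serping1 was level at 1743 and 1925 CPM. Chemokines and cytokines had 1 of 17 tested members higher and 2 lower, beside 5.17% and 1.57% of all tested genes, with a median log2 ratio of 0.08. In chow 5 of 15 tested members were higher and 4 lower. Interferon response genes leaned to the VitA+ side within 2-fold, with a median log2 ratio of -0.37 and 24 tested members, of which Ifit3 was lower (252 and 122 CPM) and Oas1a higher (9.69 and 23.2 CPM). Genes induced by tissue dissociation had 30 tested members with a median log2 ratio of -0.23, of which 3 were lower and 4 higher. The chaperone genes Dnajb1 (1165 and 411 CPM), Hsp90aa1 (2622 and 1270 CPM) and Hspa1a (4254 and 2089 CPM) were lower. Nr4a2 (25.9 and 173 CPM), Nr4a3, Klf4 and Klf2 were higher. The other 23 members, the immediate-early genes Jun and Fos among them, stayed inside 2-fold. Of 18 cycling genes 4 were tested and 0 of them moved by 2-fold. The others lay under the filter, most of them with the higher level in VitA+ cells, as Top2a (8.94 and 0.916 CPM), Cenpf (6.85 and 0.262 CPM) and Mki67 (7.61 and 3.43 CPM). Mitochondrially encoded genes summed to 27811 and 28344 CPM.

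Genes of other liver cell types were summed as well, and 1 of them, Plvap, was abundant. The rule removed cells with UMIs of Pecam1, Ptprc or Epcam and cells with a low mesenchymal sum. Low sums here follow in part from the rule and are no measure of purity. The 18 hepatocyte genes summed to 427 and 587 CPM. Of 4 tested members 2 were higher and 0 lower. The P450 enzyme Cyp2e1 (2.97 and 69.9 CPM) and Trf were the higher ones. Apoc1, the largest member of the sum, and Ass1 stayed inside 2-fold, with a lowest log2 ratio of -0.21. Albumin (Alb) stood under the filter at 2.77 and 6.21 CPM. Of 18 endothelial genes 3 were tested, and 1 of them was lower and carried most of the sum of 3463 and 1357 CPM. This was Plvap, a protein of endothelial fenestrae, at 3324 and 1208 CPM. The count of cells used for Colec10 above gave 3107 of the 9997 VitA+ cells and 333 of the 2062 VitA- cells for Plvap. The numbers for Colec10 were 3046 and 276. Plvap was thus spread over many kept cells, and the endothelial sum is no measure of endothelial cells. Whether HSC made this RNA was not tested. Among members under the filter, the junction protein Cdh5 stood at 0.165 and 1.41 CPM and the receptor Kdr at 0.542 and 2.96 CPM. The phosphatase Ptprb stood at 1.18 and 11.8 CPM. Without the limit on Pecam1, Ptprc and Epcam 6 of 9 tested endothelial genes were higher, and over every barcode 16 of 17. Macrophage genes summed to 4.80 and 15.6 CPM, lymphocyte genes to 11.0 and 11.4 CPM, cholangiocyte genes to 3.01 and 10.5 CPM, and mesothelial genes to 6.24 and 33.3 CPM, of which Wt1 alone held 6.15 and 33.1 CPM. Neutrophil, erythroid and platelet genes summed to 124 and 77.8 CPM, and nerve and glia genes to 14.4 and 9.71 CPM. The part of these cells in the gate difference was not tested beyond these levels.

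Cell by cell, the VitA- gate was a mixture and the VitA+ gate was largely not. For shares of cells, each cell was reduced at random to 2000 UMIs, since the median depth of kept cells was 13322 UMIs in the VitA+ library and 17609 in the VitA- library. An Lrat UMI was found in 91.8% of VitA+ cells (91.3 to 92.4%, Clopper-Pearson) and in 57.2% of VitA- cells (55.1 to 59.4%), against 2.59% and 3.12% in the cells of other types in the same libraries. Without thinning the shares were 99.8% and 85.1% for Lrat, 0.790% and 26.1% for Sfrp1, 55.2% and 14.2% for Epor, and 53.2% and 86.5% for Col1a1. Sfrp1 was found in 20 VitA+ cells (0.200%) and in 315 VitA- cells (15.3%, 13.7 to 16.9%), against 0.518% and 0.223% in the cells of other types. Epor was found in 14.2% and 2.86%, against 2.07% and 1.56% in the cells of other types. Col1a1 was found in 21.1% of VitA+ cells and in 58.3% of VitA- cells. Even in the Col1a1-reporter gate, most VitA+ cells thus showed no Col1a1 UMI at this depth, and 0 of 193 and 2.23% of the cells of other types did. The median depth of the cells of other types was 8919 and 13772 UMIs.

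Cells with Sfrp1 and cells without it differed in other genes. At 2000 UMIs, 0 VitA+ cells and 3 VitA- cells held both Sfrp1 and Epor, from which nothing is read, since Sfrp1 was found in 20 and 315 cells and Epor in 1423 and 59. Of the VitA- cells, 265 held Sfrp1 without Lrat, 50 held both, 1130 held Lrat without Sfrp1, and 617 (29.9%) held neither. The 265 cells with Sfrp1 and no Lrat summed to 1458 CPM of Sfrp1, 3432 CPM of Gas6, 1765 CPM of Col1a1, 150 CPM of Acta2 and 15.2 CPM of Colec10. The 617 cells with neither summed to 1642 CPM of Acta2, 1533 CPM of Col1a1 and 876 CPM of Gas6, and the 1130 cells with Lrat alone to 391 CPM of Acta2, 625 CPM of Col1a1 and 780 CPM of Colec10. Acta2 was thus highest outside the Sfrp1 cells. These groups were cut by a UMI of Lrat or Sfrp1, so the levels of these 2 genes in them are no result.

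**Figure D4:**
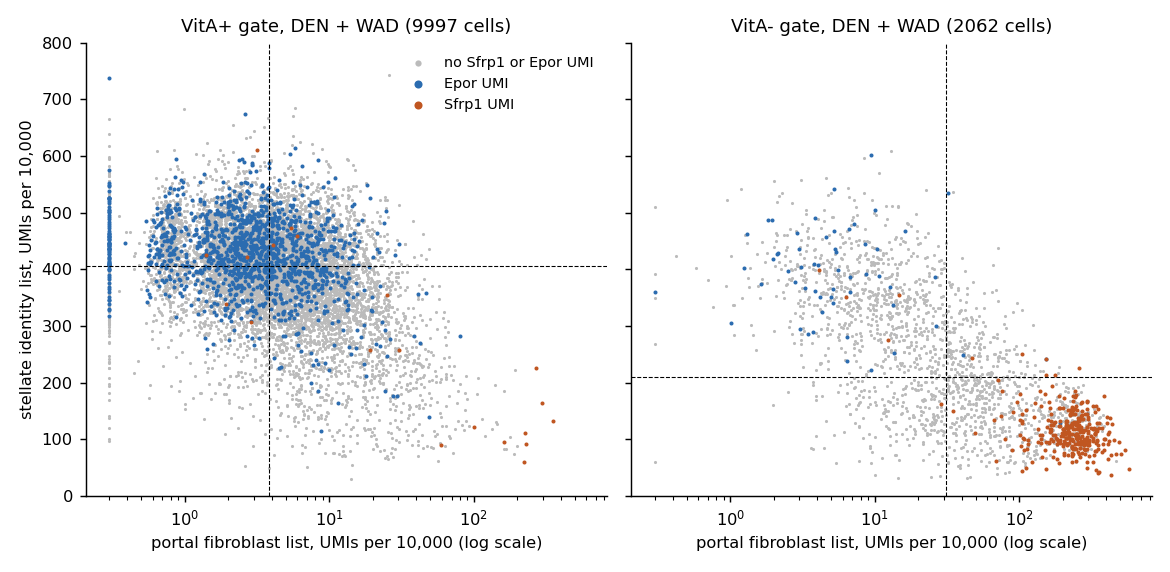
Each kept cell of the VitA+ (left) and VitA- (right) gate in DEN + WAD liver, by its UMIs per 10000 in the 20 PF genes (x axis, log scale, cells at 0 drawn at 0.3) and in the 27 HSC identity genes (y axis); blue points held an Epor UMI and orange points an Sfrp1 UMI after thinning to 2000 UMIs, and dashed lines are medians. The medians lie at 3.83 and 405 in VitA+ cells and at 31.2 and 211 in VitA- cells, where the Sfrp1 cells gather at high PF and low HSC values and the Epor cells at the other end.

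The spread between cells was wider in the VitA- gate. The HSC genes took a median of 405 UMIs per 10000 in VitA+ cells, with the 5th and 95th percentiles at 226 and 517, and of 211 in VitA- cells, from 78.5 to 447. The PF genes took a median of 3.83 (0.587 to 20.9) and of 31.2 (3.07 to 286). At 2000 UMIs per cell, 812 VitA- cells (39.4%) held 10 or more UMIs of the PF genes, 1049 held 1 to 9, and 201 (9.75%) held 0. In the VitA+ gate 114 cells (1.14%) held 10 or more, 5534 held 1 to 9, and 4349 (43.5%) held 0. These ranges are cuts of a continuous count and not cell types.

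Within the same range the gates still differed in Col1a1 and Acta2. Among cells with 0 PF UMIs, Col1a1 stood at 128 CPM in the 4349 VitA+ cells and 629 CPM in the 201 VitA- cells, Acta2 at 58.3 and 709 CPM, Epor at 90.7 and 46.3 CPM, and Colec10 at 1894 and 1287 CPM. Among cells with 1 to 9 PF UMIs, Col1a1 stood at 378 and 782 CPM, Acta2 at 142 and 964 CPM and Cyp1b1 at 6.36 and 28.4 CPM. Among cells with 10 or more the order of Col1a1 turned, with 2878 CPM in the 114 VitA+ cells and 1603 CPM in the 812 VitA- cells, and Cyp1b1 stood at 91.6 and 76.8 CPM. Acta2 was higher in the VitA- cells there too, by less (373 and 537 CPM). In chow liver 133 VitA+ and 11 VitA- cells held 0 PF UMIs, with Col1a1 at 80.5 and 553 CPM and Acta2 at 8.81 and 1096 CPM. With 1 to 9 PF UMIs in chow, Col1a1 stood at 123 and 1359 CPM and Acta2 at 8.24 and 3454 CPM. A gap in these 2 genes was thus present without DEN + WAD. Its relation to activation or to smooth muscle cells was not tested.

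When only cells with an Lrat UMI were compared, 9181 against 1180, 201 of 7938 tested genes were higher (2.53%) and 37 were lower (0.466%), of which 195 and 36 were also called among all kept cells. Epor stayed lower (78.6 and 19.9 CPM, log2 ratio -1.98), as did Colec10 (1733 and 740 CPM), and Sfrp1, Mgp and Gas6 stayed higher (0.872 and 77.5 CPM, 11.1 and 388 CPM, and 12.6 and 310 CPM). The HSC list had 3 of 27 members lower in place of 13, and the PF list 10 of 12 tested members higher. When only cells with 0 PF UMIs were compared, 96 of 7841 tested genes were higher (1.22%) and 6 were lower (0.0765%), of which 81 and 5 were also called among all kept cells. There the HSC list had 0 members lower, and the retinoid and hormone receptor lists had 0 called members each. The contractile list had 5 of 11 tested members higher. The genes with the largest ratios at 50 CPM or more in this subset, picked after their values were seen, were S100a6, a calcium-binding protein (12.1 and 240 CPM), Gpx3 (3.78 and 53.8 CPM), Acta2 (log2 ratio 3.60, 3.53 to 3.68), Col8a1 (8.06 and 76.5 CPM), Lmcd1 (6.61 and 61.7 CPM) and the receptor Notch3 (8.99 and 59.5 CPM), followed by Gstp1, an entry named Ccl19, Nme2 and Col1a1. The gate difference in HSC identity genes was thus smaller and that in Acta2 larger among cells without PF UMIs. A cell with 0 such UMIs at this depth may still hold some.

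The same pair of gates in chow liver, which shares no library with the DEN + WAD pair, gave 232 of 259 and 590 of 668 barcodes by the same rule. Of 8354 tested genes 823 (9.85%) were higher and 485 (5.81%) were lower in the VitA- library. Over 7845 genes tested in both pairs, 368 of the 409 genes higher in DEN + WAD (90.0%) were also higher in chow, which is 57.5% of the 640 higher in chow. On the lower side 112 of 114 (98.2%) were also lower in chow, which is 24.4% of 459. The ratio was larger in chow for 339 of these 368 genes and for 109 of the 112, with median log2 ratios of 2.02 and 3.05 on the higher side and of -1.32 and -3.04 on the lower side. Lrat stood at 2015 and 407 CPM in chow, Epor at 85.9 and 2.13 CPM and Colec10 at 2421 and 83.6 CPM. Sfrp1 had 0 UMIs in chow VitA+ cells, where 3 UMIs would be 0.536 CPM, and 515 CPM in VitA- cells. That is 961-fold higher against this floor, while the lower end of the exact interval is 9.61 on the log2 scale. Col1a1 stood at 98.1 and 1935 CPM.

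The VitA- gates differed in their mixture between the treatments. Of the chow VitA- cells 461 of 590 (78.1%) held 10 or more PF UMIs at 2000 UMIs per cell and 11 held 0, beside 39.4% and 201 in DEN + WAD. In the chow VitA+ gate 0 of 232 cells held 10 or more, so the share may reach 1.29% with 3 cells as the floor and 1.58% at the upper end of the Clopper-Pearson interval. The HSC genes took a median of 111 UMIs per 10000 in chow VitA- cells and 211 in DEN + WAD VitA- cells. How much of the smaller ratios in DEN + WAD goes with this mixture was not tested, and each treatment is 1 library per gate.

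**Figure D5:**
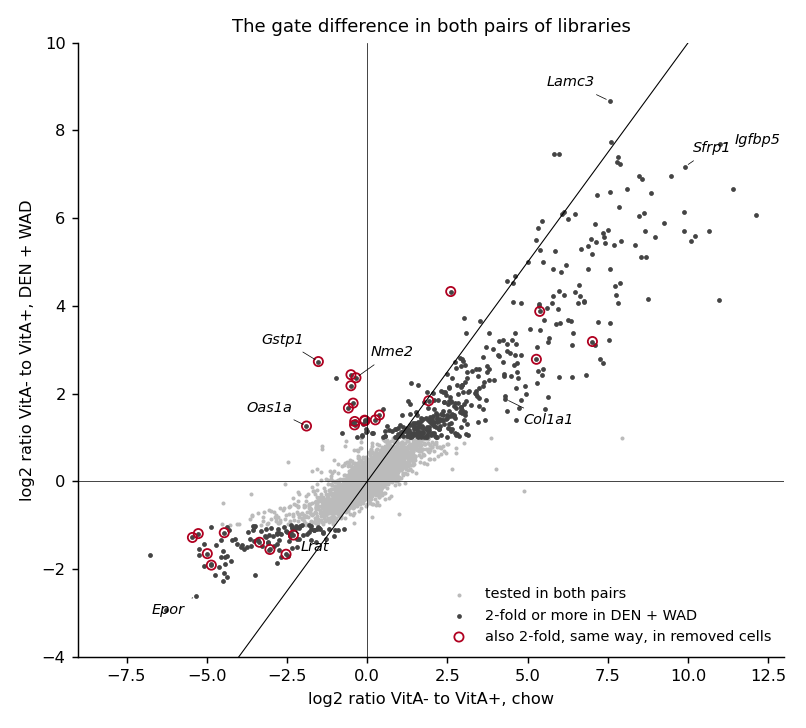
The log2 ratio of VitA- to VitA+ in chow (x axis) and in DEN + WAD (y axis) for 7845 genes tested in both pairs; dark points were 2-fold or more in DEN + WAD, red rings mark those that were also 2-fold the same way in the removed cells, and the diagonal marks equal ratios. Most dark points lie on the chow side of the diagonal (339 of 368 higher and 109 of 112 lower genes), and Gstp1, Nme2 and Oas1a stand above it with chow ratios below 0.

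A small set of genes was higher in DEN + WAD VitA- cells and not in chow, and part of it was shared with the removed cells. Of the 41 genes higher in DEN + WAD but not in chow, 39 were within 2-fold in chow and 2, Gstp1 and Oas1a, were lower there. The cells removed for a low mesenchymal sum, 201 and 465 in number, served for comparison: there 83 of 8565 tested genes (0.969%) were higher in the VitA- library and 114 (1.33%) were lower. Of the 41 genes 32 were tested in the removed cells and 13 of these were higher there too, beside 5 of 175 tested among the 368 that were higher in chow. Among them, picked after their values were seen, Nme2, a nucleoside diphosphate kinase, stood at 14.9 and 76.4 CPM in kept cells and 17.1 and 62.6 CPM in removed cells, Erh at 14.3 and 49.4 CPM and at 10.7 and 40.5 CPM, and Grcc10 at 29.2 and 92.95 CPM and at 30.4 and 91.3 CPM. For these genes the 2 libraries differed by a like factor in kept and removed cells, and the part of this in the gate difference was not tested. Several of them have near-identical copies in the genome, so their counts are uncertain. Without every gene that was 2-fold or more the same way in the removed cells, whatever its ratio in chow, 398 genes were higher and 116 lower.

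Depth set the limits of these values. The kept cells held 145691476 UMIs in the VitA+ library and 38191564 in the VitA- library, so that 3 UMIs, the floor set for a count of 0, were 0.0206 and 0.0786 CPM. Of the barcodes, 13 occurred in both libraries, 12 of them among kept cells.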

How the data were processed

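Sorted liver cells were profiled by droplet 3′ single-cell RNA sequencing, with 1 library per gate and treatment, and groups were taken from the sample labels. The deposited UMI counts per gene and barcode were made by the authors with Cell Ranger 3.1.0, named in the submitters' processing notes, on mm10. The kit version differs between the label fields. The matrices were used as deposited.

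Cells were kept by the rule above, no doublet caller was run, and UMIs were summed per library and divided by the library's total (CPM). A 3′ tag count gives no comparison of levels between genes. A gene was tested at a mean of 10 CPM or more and called at a ratio of 2 or more, or 0.5 or less. A library with 0 UMIs was set to 3 UMIs for a bound. With 1 library per group no statistical test across samples could be made. Named genes were Lrat, Sfrp1 and Epor, the 12 highest and 12 lowest ratios at 50 CPM or more, and members of 33 gene lists, and some of these genes are not reported here. The members and lists were chosen with earlier results of these data known. Of 31053 gene identifiers 30934 (99.6%) were found in the GENCODE annotation. Cells were thinned with a fixed seed. The other DEN + WAD library, of cells without the reporter, entered no comparison here.

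Python 3.11.15, numpy 2.4.6, scipy 1.17.1, pandas 2.3.3 and matplotlib 3.10.9 were used, and edgeR 4.0.16 in R 4.3.3 gave trimmed mean of M values (TMM) factors only. The code was tested on simulated data. Alternatives covered cell choice, summing, scaling and the filter on level, and 1 alternative, without genes that also differed in the removed cells, was chosen after seeing the data.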

Additional observations from a re-analysis of the deposited data

Results flagged for a closer look

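Gstp1 and Oas1a went opposite ways in the 2 treatments. Gstp1, a glutathione transferase, had a log2 ratio of VitA- to VitA+ of 2.73 in DEN + WAD (18.4 and 122 CPM) and of -1.52 in chow (95.1 and 33.1 CPM). Oas1a, an interferon-induced synthetase, had a log2 ratio of 1.26 in DEN + WAD (9.69 and 23.2 CPM) and of -1.89 in chow (28.1 and 7.56 CPM). With 1 library per gate and treatment the difference was not tested. In the cells of the DEN + WAD libraries that the rule removed for a low mesenchymal sum, Gstp1 stood at 18.1 and 115 CPM and Oas1a at 6.40 and 20.9 CPM. Both genes have near copies, Gstp2 and the Oas1 family, so their counts are uncertain.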

How the results depend on the processing

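Against 416 genes 2-fold or more higher in VitA-Col1a1+ cells and 126 genes 2-fold or more lower in VitA-Col1a1+ cells, the counts were 201 and 37 among cells with an Lrat UMI, 96 and 6 among cells with 0 PF UMIs, 1110 and 239 at a mean of 1 CPM or more, and 5199 and 632 with no filter, where the bound of 3 UMIs carries genes of few counts by construction. The log2 ratio of Lrat (-1.08) was -1.29 over every barcode, -1.02 without the top 5% of cells by UMIs, -0.41 among cells with an Lrat UMI (a value that this choice of cells itself shrinks), -0.27 among cells with 0 PF UMIs, -0.93 as a mean over cells, -0.95 after thinning and -1.19 under TMM factors, which gave 358 genes higher and 171 lower. Each of the other alternatives kept the counts within 1.5 times. Among cells with 0 PF UMIs the sign turned for Ngfr (0.11), Il34 (0.056), Serpina3g (0.056), the median of the portal HSC genes (0.056), Mmp3 (-2.83), Wnt5a (-0.70) and Il6ra (-0.19), and the cause was not tested. These are the values of 1 or more in size on the log2 scale that turned sign. List medians nearer to 0 also turned: the retinoid median was 0.11 over every barcode, the endothelial median 3.43 over every barcode, 1.81 without the limit on Pecam1, Ptprc and Epcam and 0.67 among cells with 0 PF UMIs, and in these last cells the median was -0.04 for PDGF, HGF and IGF genes, 0.01 for nerve and glia genes and -0.15 for mitochondrial genes. Under TMM factors the median was -0.04 for cytokine receptors, -0.08 for YAP targets, -0.02 for chemokines and -0.09 for mitochondrial genes. The chemokine median (0.08) also turned under most changes of cell choice and summing, down to -0.31 without the top 5% of cells, and the mitochondrial median among cells with an Lrat UMI and with the median ratio set to 1. No paired analysis was possible because each group had 1 library. Without animals as replicates, no value here separates the gate from the library.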
